A study of Mus musculus with 4 samples.

Results

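Hippocampal marker genes were compared across RNA-seq libraries of mouse brain. The 7 genes Prox1, C1ql2, Neurod1, Dsp, Wfs1, Fibcd1 and Zbtb20 were chosen by name, and their symbols were matched to the Entrez identifiers of a count table that holds 12700 genes. Of the 7, 6 had a row in the table. Dsp had no row in the table used here and was not analysed here.

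The hippocampus is built from subfields with distinct principal neurons. Granule cells of the dentate gyrus send mossy fibres to the pyramidal cells of CA3, which in turn project to the pyramidal cells of CA1, and new granule neurons continue to be added in the adult dentate gyrus. Each subfield is recognized by a small set of genes. None of these genes is exclusive to the hippocampus: Prox1 is also known from cortical interneurons and parts of the thalamus, Wfs1 from upper cortical layers and striatum, and Zbtb20 from astrocytes.

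The samples came from C57BL/6 mice aged 9 months, either Ids-ko (genotype Ids-/-), a model of Hunter syndrome that lacks the lysosomal enzyme iduronate 2-sulfatase, or wild type littermates (wt). Each brain was divided into Cx, the cerebral cortex (neocortex), and M, a mixed area that took in midbrain, hypothalamus, thalamus, striatum and hippocampus. RNA of 7 mice was pooled for each of the conditions CxH (Ids-ko cortex), CxWT (wt cortex), MH (Ids-ko M area) and MWT (wt M area), and each pool was sequenced as 1 library. By this dissection the hippocampal genes would be looked for mainly in MH and MWT, and the question here was which libraries carried them.

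The libraries did not sort by their labels. Ids itself had 5211 reads in CxH against 11890 in CxWT, and 13752 reads in MH against 4496 in MWT, so it was lower in the library labelled Ids-ko in Cx (log2 ratio -1.39 ± 0.024, counting SE) and higher in the library labelled Ids-ko in M (1.25 ± 0.0248). Levels are given as RPM, the reads of a gene per 1000000 aligned reads of its library. The markers of dissected areas paired CxH with MH and CxWT with MWT. The summed level of 10 cortical excitatory neuron genes was 534.2 RPM in CxH and 530.3 in MH, against 229.3 in CxWT and 223.1 in MWT. Thalamic genes showed the opposite arrangement, with 75.01 and 96.16 RPM in CxH and MH against 585.4 and 523.8 in CxWT and MWT, and the midbrain genes En1 and Pax7 were at or under 3 reads in CxH and MH. Libraries are therefore named by their labels throughout, and a direction between libraries is not read as a direction between genotypes or areas.

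Reads on genes numbered between 16380080 (MWT) and 23475080 (CxH). A floor of 3 reads, at or under which a gene was not taken as detected, corresponded to 0.0779 to 0.104 RPM. Every pair of libraries was compared over the whole table by a 2-sided likelihood ratio test on Poisson counts, and a gene was called at p under 0.05 if its log2 ratio was also 0.7 or more in either direction. The p-values printed are adjusted over the whole table by the method of Benjamini and Hochberg, which changed no call of these genes. Intervals, standard errors and p-values cover counting error only, because no condition had a second library, so the test compares libraries and not conditions. In pooled tissue, fewer cells of a type and less RNA per cell cannot be told apart.

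The windows just upstream of the starts of Prox1, Neurod1, Wfs1 and Fibcd1 are shown because the last 3 were called together with Zbtb20 between MH and MWT, while Prox1 was called in another pair. Each holds the 250 bases before the start, 5′ to 3′ on the strand of the gene, from RefSeq on GRCm38.p6, a later build than that of the counts. Capitals mark the motifs searched: the E-box CAGATG (or CATCTG on the other strand), the binding element of basic helix-loop-helix factors such as Neurod1, the TATA box TATAAA (or TTTATA), and the CRE core TGACG (or CGTCA).
Prox1, chr1:190170828-190171077, minus strand: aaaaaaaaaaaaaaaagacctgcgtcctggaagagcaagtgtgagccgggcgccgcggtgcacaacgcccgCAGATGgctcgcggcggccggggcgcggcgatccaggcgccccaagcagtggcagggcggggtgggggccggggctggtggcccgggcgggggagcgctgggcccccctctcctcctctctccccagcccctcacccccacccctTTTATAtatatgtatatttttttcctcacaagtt
Neurod1, chr2:79456637-79456886, minus strand: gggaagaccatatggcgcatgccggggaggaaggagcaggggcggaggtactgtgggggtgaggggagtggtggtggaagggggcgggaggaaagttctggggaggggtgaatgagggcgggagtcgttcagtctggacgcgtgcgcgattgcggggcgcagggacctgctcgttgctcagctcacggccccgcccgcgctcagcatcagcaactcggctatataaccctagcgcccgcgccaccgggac
Wfs1, chr5:36988983-36989232, minus strand: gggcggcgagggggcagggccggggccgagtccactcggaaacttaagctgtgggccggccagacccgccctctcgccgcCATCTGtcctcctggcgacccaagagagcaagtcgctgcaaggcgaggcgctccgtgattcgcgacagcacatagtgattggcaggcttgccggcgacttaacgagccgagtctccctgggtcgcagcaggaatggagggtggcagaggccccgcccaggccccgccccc
Fibcd1, chr2:31846006-31846255, minus strand: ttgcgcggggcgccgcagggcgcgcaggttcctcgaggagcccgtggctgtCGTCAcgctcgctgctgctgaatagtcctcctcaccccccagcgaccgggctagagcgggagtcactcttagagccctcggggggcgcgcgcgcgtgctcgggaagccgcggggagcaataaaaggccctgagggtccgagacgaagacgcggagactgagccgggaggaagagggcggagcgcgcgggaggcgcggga

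All 4 windows were rich in G and C, with a GC content of 64.8% in Prox1, 67.6% in Neurod1, 69.6% in Wfs1 and 71.6% in Fibcd1. The E-box lay 179 bases before the start of Prox1 and 170 bases before that of Wfs1. The TATA box letters lay 34 bases before the start of Prox1, on the other strand, and the CRE core 199 bases before that of Fibcd1. No motif was shared by Neurod1, Wfs1 and Fibcd1, and the window of Zbtb20 (44.8% GC, not printed) and a second window of Prox1 (56.0% GC, not printed) held none of the 3. Across 32851 windows that also ran past the start, and so were longer than those shown, 17.2% held the E-box, 13.6% the TATA box and 20.8% the CRE core. These shares are not those of the upstream part alone, and a match is a description of the letters only.

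Among the dentate gyrus genes, Prox1 and C1ql2 were both highest in CxWT and lowest in CxH. Prox1, a homeobox transcription factor that sets and maintains granule cell identity, lies on chromosome 1 from 191945660 to 191994559 (NCBIM37/mm9, minus strand). It had 9.64 RPM in CxH (371 reads, 95% exact Poisson interval, 8.68 to 10.67), 20.26 in CxWT (681 reads, 18.76 to 21.84), 13.3 in MH (497 reads, 12.16 to 14.52) and 14.68 in MWT (425 reads, 13.32 to 16.15). The order was thus CxWT, MWT, MH and CxH, and of the neighbours in that order MWT and MH were not separated (adjusted p = 0.169), whereas CxWT was above MWT (adjusted p = 5.75e-07) and MH above CxH (adjusted p = 9.18e-06). Its highest level was 2.1-fold its lowest.

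C1ql2, a secreted C1q-like protein of mossy fibre synapses that gathers kainate receptors there, lies on chromosome 1 from 122237159 to 122239748 (plus strand). In uncorrected RPM it varied least of the 6 genes, 1.33-fold, with 9.61 RPM in CxH (370 reads, 8.66 to 10.64), 12.82 in CxWT (431 reads, 11.64 to 14.09), 10.04 in MH (375 reads, 9.05 to 11.11) and 11.02 in MWT (319 reads, 9.84 to 12.3). With the correction for GC content and length given below, its log2 ratio of MWT over CxH went from 0.20 to 1.19. The intervals of CxH, MH and MWT overlapped one another. Neighbours in the order CxWT, MWT, MH and CxH gave adjusted p = 0.0664, 0.263 and 0.638, so that no neighbours were separated, although CxWT and CxH at the ends of the order were (adjusted p = 8.91e-05).

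Neurod1, a basic helix-loop-helix factor that drives the maturation of newborn granule neurons, had another arrangement. It lies on chromosome 2 from 79292678 to 79296908 (minus strand), where 201 of its exon bases are shared with Cerkl on the same strand. It was the least abundant of the 6 in reads, with 7.19 RPM in CxH (277 reads, 6.37 to 8.09), 4.52 in CxWT (152 reads, 3.83 to 5.3), 9.29 in MH (347 reads, 8.34 to 10.32) and 3.63 in MWT (105 reads, 2.97 to 4.39). MH and CxH stood above CxWT and MWT without overlap of the intervals. Of the neighbours, CxWT and MWT were not separated (adjusted p = 0.124), while MH exceeded CxH (adjusted p = 0.00363) and CxH exceeded CxWT (adjusted p = 5.96e-06).

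The pair of CA1 genes was ordered alike, with CxH and MH high, CxWT intermediate and MWT lowest. Wfs1, which encodes wolframin, a membrane protein of the endoplasmic reticulum, lies on chromosome 5 from 37357343 to 37380221 (minus strand). It was the most abundant of the 6, with 84.49 RPM in CxH (3253 reads, 81.61 to 87.44), 59.52 in CxWT (2001 reads, 56.94 to 62.19), 81.1 in MH (3030 reads, 78.23 to 84.04) and 44.39 in MWT (1285 reads, 42.0 to 46.89). CxH and MH were not separated (adjusted p = 0.16), and MH lay above CxWT (adjusted p = 1.72e-26) and CxWT above MWT (adjusted p = 1.09e-15).

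Fibcd1, an acetyl-group-binding receptor of the cell surface, lies on chromosome 2 from 31668810 to 31701525 (minus strand). It had 24.18 RPM in CxH (931 reads, 22.65 to 25.78), 17.58 in CxWT (591 reads, 16.19 to 19.06), 26.9 in MH (1005 reads, 25.26 to 28.61) and 11.33 in MWT (328 reads, 10.14 to 12.63). All steps in the order MH, CxH, CxWT and MWT had an adjusted p under 0.05, the smallest step being that from MH to CxH (adjusted p = 0.0364). The level in MH was 2.37-fold that in MWT.

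Zbtb20, a zinc finger repressor needed for the identity of hippocampal pyramidal neurons, lies on chromosome 16 from 42875994 to 43642715 (plus strand). Its level was 9.51 RPM in CxH (366 reads, 8.56 to 10.53), 8.03 in CxWT (270 reads, 7.1 to 9.05), 10.33 in MH (386 reads, 9.33 to 11.41) and 3.77 in MWT (109 reads, 3.09 to 4.54). MWT stood clear of the other libraries: the step from CxWT to MWT had adjusted p = 1.91e-11, that from MH to CxH adjusted p = 0.339 and that from CxH to CxWT adjusted p = 0.0487. The fold from lowest to highest, 2.74, was the greatest of the 6. The annotation holds 2 overlapping records of this gene, and a transcript of 26901 bases with a coding part of 2226 bases, so its level per length is uncertain.

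**Figure D1:**
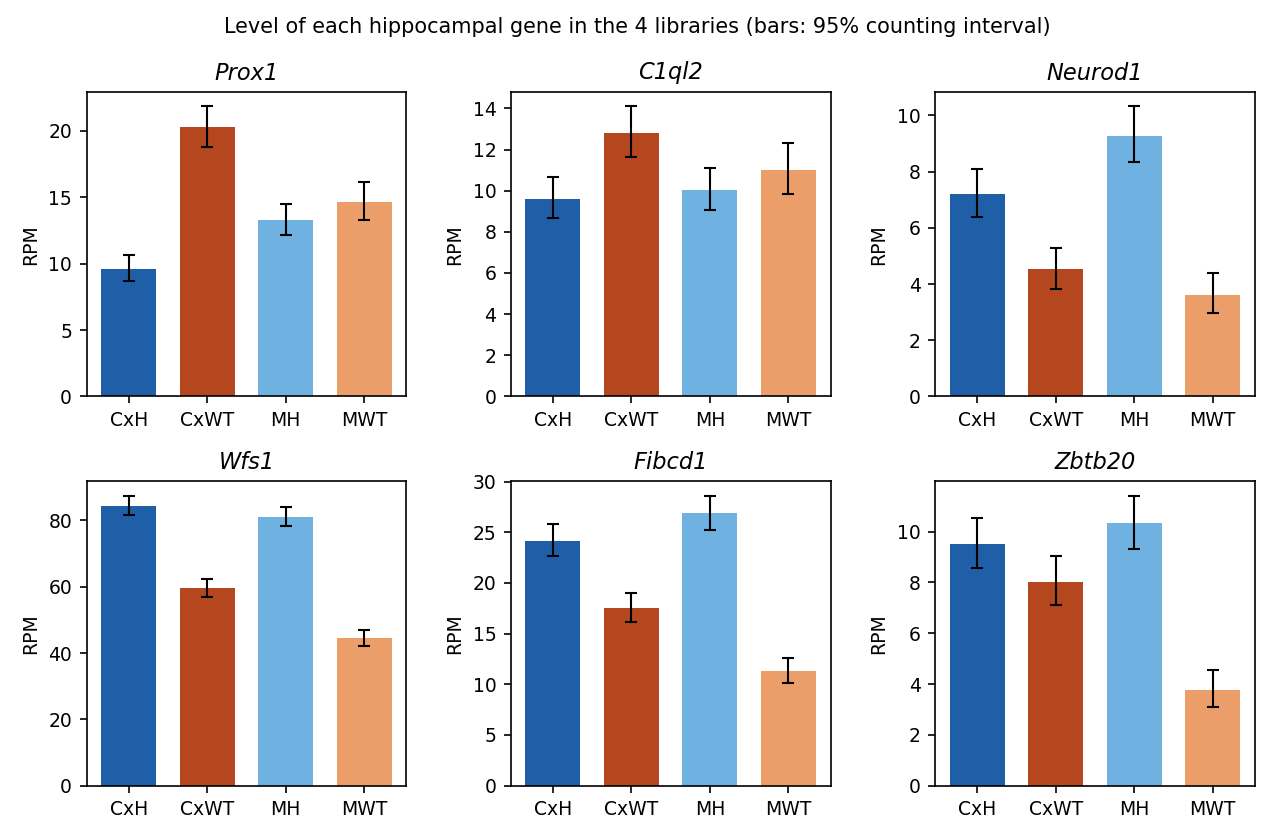
Level of the 6 hippocampal genes in each library; each panel is 1 gene, bars are RPM in CxH, CxWT, MH and MWT and lines are 95% exact Poisson intervals. MWT is the lowest library for Neurod1, Wfs1, Fibcd1 and Zbtb20 (Zbtb20 3.77 RPM against 10.33 in MH), whereas CxWT is the highest for Prox1 (20.26 RPM) and C1ql2 (12.82 RPM).

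Per kilobase of transcript, Wfs1 had the highest level, between 12.46 and 23.71 RPM per kb over the libraries. It was followed by C1ql2, from 4.81 to 6.42 RPM per kb, whose short transcript put it above Prox1 (2.33 to 4.9) in every library and above Fibcd1 (2.39 to 5.66) in CxWT and MWT. Neurod1 lay between 1.33 and 3.4 RPM per kb. Against all genes of the table, by RPM, Wfs1 stood above 83.4% of them, Fibcd1 above 51.1%, Prox1 above 40.0%, C1ql2 above 32.8%, Zbtb20 above 25.6% and Neurod1 above 20.4%. Summed over the 6 genes, the level was 144.6 RPM in CxH and 151.0 in MH, against 122.7 in CxWT and 88.82 in MWT, a sum that is dominated by Wfs1.

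Between the area labels, no hippocampal gene was called higher in a library labelled M than in the library of the same genotype labelled Cx. In the Ids-ko labels, MH over CxH, 0 of the 6 genes were called, where 1.06% of all genes were called higher and 2.43% lower. By the unadjusted p-value alone, 3 of the 6 passed, as did 59.1% of all genes in either direction. All 3 were higher in MH: Prox1 at a log2 ratio of 0.47 ± 0.099 (adjusted p = 9.18e-06), Neurod1 at 0.37 ± 0.116 (adjusted p = 0.00363) and Fibcd1 at 0.15 ± 0.0656 (adjusted p = 0.0364). With a variation of 0.2 between pools assumed, an exact test called 0 as well. Zbtb20 (0.12 ± 0.105), C1ql2 (0.06 ± 0.106) and Wfs1 (-0.06 ± 0.0364) did not pass. The median over the 6 was 0.14, and 0.24 when the trend of the ratios with transcript GC content and length was subtracted, beside -0.01 over all genes uncorrected, and Prox1 exceeded 94.7% of all genes in this ratio.

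In the wt labels, MWT over CxWT, Zbtb20 was called lower and no gene was called higher. All 6 log2 ratios were below 0, with a median of -0.44, or -0.25 when corrected for GC content and length, beside -0.04 over all genes uncorrected, of which 2.11% were called higher and 5.43% lower. By the unadjusted p-value alone 5 of the 6 passed, all lower, as did 61.7% of all genes in either direction. Zbtb20 fell by 1.09 ± 0.164 on the log2 scale (adjusted p = 1.91e-11), a ratio that exceeded only 1.19% of all genes. Fibcd1 came next at -0.63 ± 0.0993 (adjusted p = 4.77e-10), then Prox1 at -0.46 ± 0.0892 (adjusted p = 5.75e-07) and Wfs1 at -0.42 ± 0.0516 (adjusted p = 1.09e-15), all under the log2 threshold. Neurod1 (-0.32 ± 0.183, adjusted p = 0.124) and C1ql2 (-0.22 ± 0.107, adjusted p = 0.0664) differed least. Before any correction for base composition, the library labelled as wt cortex thus had a higher RPM of each gene than the library labelled as the wt area with hippocampus.

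Between the genotype labels in Cx, Prox1 was called, and it was lower in CxH than in CxWT. The log2 ratio of CxH over CxWT was -1.07 ± 0.0931 for Prox1 (adjusted p = 1.96e-31), 0.476 times the level in CxWT. Neurod1, at 0.67 ± 0.146 (adjusted p = 5.96e-06), was just under the threshold, and Wfs1 (0.51 ± 0.041), Fibcd1 (0.46 ± 0.0759) and Zbtb20 (0.24 ± 0.116) were also on the higher side. C1ql2 joined Prox1 on the lower side at -0.42 ± 0.102 (adjusted p = 8.91e-05). Over all genes, 9.46% were called higher and 11.5% lower in this pair, so 1 called gene of 6 is close to the background.

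Between the genotype labels in M, 4 of the 6 genes were called, all higher in MH than in MWT, where 12.3% of all genes were called higher and 12.7% lower. Zbtb20 rose by a log2 ratio of 1.46 ± 0.156 (2.74-fold, adjusted p = 2.99e-23), Neurod1 by 1.36 ± 0.161 (2.56-fold, adjusted p = 4.93e-19), Fibcd1 by 1.25 ± 0.0917 (2.37-fold, adjusted p = 1.56e-46) and Wfs1 by 0.87 ± 0.048 (1.83-fold, adjusted p = 3.18e-77). The granule cell genes stood apart from them, with -0.14 ± 0.0953 for Prox1 (adjusted p = 0.169) and -0.13 ± 0.11 for C1ql2 (adjusted p = 0.263). The median of the 6 was 1.06, beside -0.07 over all genes, and 0.50 when corrected for GC content and length, under which Wfs1 (0.42) and Fibcd1 (0.58) lost their calls. The 4 called genes are used as markers of newborn granule neurons, CA1 and pyramidal neurons in general, and do not stand for these cells as a whole. Of the other genes of newborn granule neurons, Dcx (-0.14 ± 0.0644) and Sox11 (0.03 ± 0.117) were not called in this pair.

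The remaining pairs differ in both labels. CxWT over MH had 1 gene called, Neurod1 at -1.04 ± 0.14 (adjusted p = 6.8e-14), with 8.89% of all genes called higher and 6.41% lower. Prox1 was higher in CxWT by 0.61 ± 0.0851 without reaching the threshold, and Fibcd1 was lower at -0.61 ± 0.0748. MWT over CxH had 4 genes called, all lower, with 15.1% of all genes called higher and 15.6% lower: Zbtb20 at -1.34 ± 0.157, Fibcd1 at -1.09 ± 0.0926, Neurod1 at -0.99 ± 0.165 and Wfs1 at -0.93 ± 0.0475. The median of the 6 was -0.96, and -0.30 when corrected, under which Fibcd1 and Wfs1 lost their calls here too. Prox1 lay on the other side, at 0.61 ± 0.103 (adjusted p = 6.45e-09). The genes called lower in MWT against CxH are those called higher in MH against MWT, but these pairs share the library MWT, and so are not separate evidence.

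**Figure D2:**
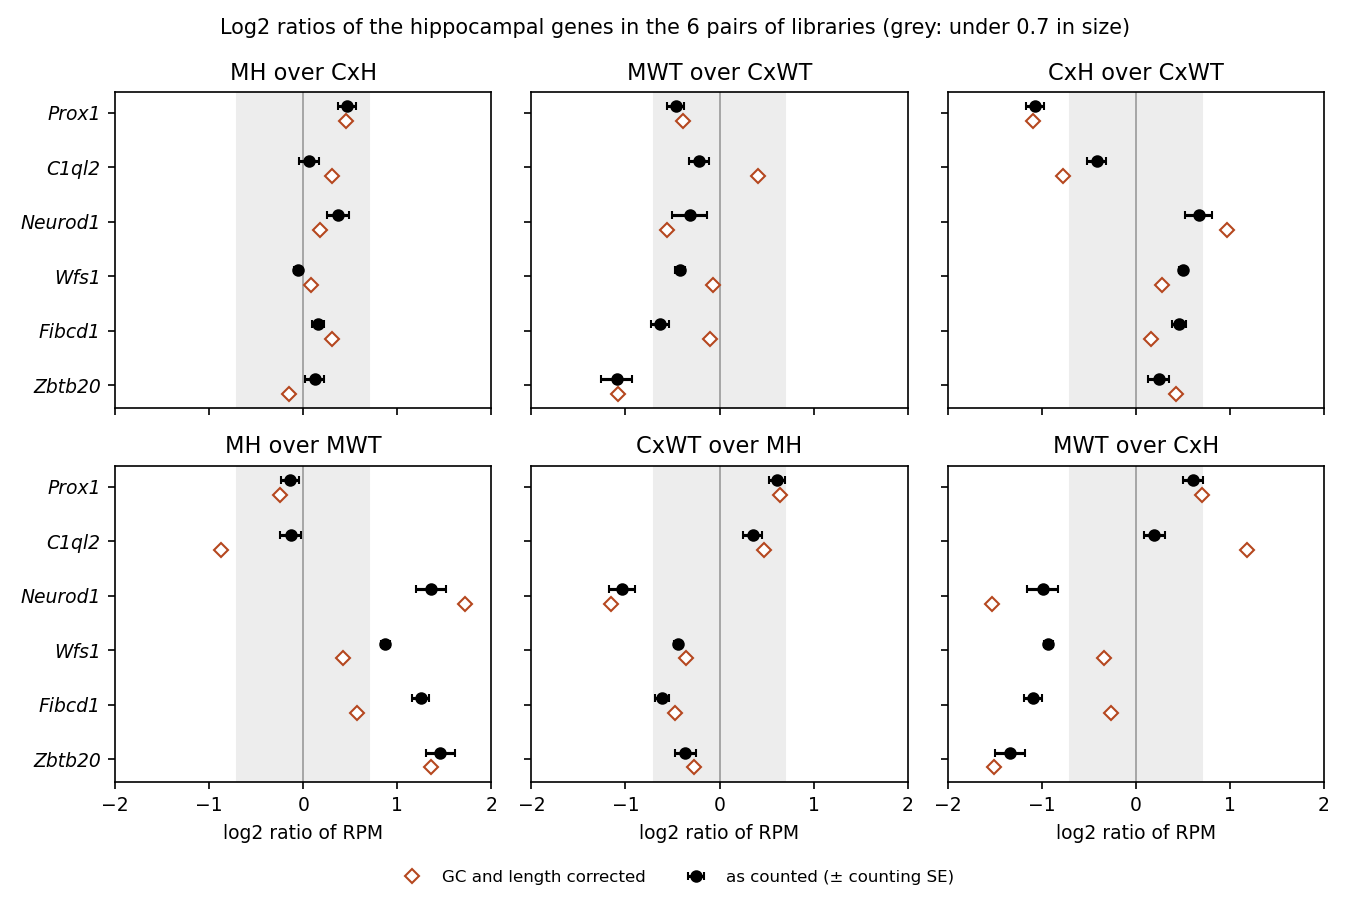
Log2 ratios of the 6 genes in the 6 pairs of libraries; filled points are ratios of RPM with the counting SE as bars, open diamonds are the ratios corrected for transcript GC and length, and grey is the range under 0.7 in size. In MH over MWT the uncorrected ratios of Zbtb20, Neurod1, Fibcd1 and Wfs1 lie between 0.87 and 1.46, and after correction those of Fibcd1 and Wfs1 lie at 0.58 and 0.42.

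Several of these ratios moved with base composition. In the 11010 genes that reached 100 reads in each library, the log2 ratio was correlated across genes with transcript GC content, at a Spearman coefficient of -0.627 for MWT over CxWT, 0.486 for MH over MWT and -0.685 for MWT over CxH, as a description since genes are not independent. The 6 genes cover this range: Zbtb20 and Neurod1 have transcripts of 43.0% and 43.6% GC, Prox1 of 51.2%, Wfs1 of 57.3%, Fibcd1 of 59.4% and C1ql2 of 63.4%, the last above 99.0% of all genes. In the coding part alone, Zbtb20 and Neurod1 have 57.6% and 56.6% GC, near Wfs1 at 58.7%. A fit of the ratios on GC content and transcript length was subtracted to give corrected ratios, and the test was repeated with the fit as an offset. 

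After this correction, Zbtb20 (1.36) and Neurod1 (1.72) were still called higher in MH than in MWT, Wfs1 (0.42) and Fibcd1 (0.58) no longer were, and C1ql2 was called lower (-0.88). Of the 12700 genes, 1032 were called higher and 1232 lower in this pair with the correction, against 1556 and 1614 without it. In MWT over CxH, Zbtb20 (-1.51) and Neurod1 (-1.53) were still called lower, Wfs1 (-0.34) and Fibcd1 (-0.26) were not, and C1ql2 (1.19) and Prox1 (0.71) were called higher, beside 1017 genes called higher and 1011 lower in all. In CxH over CxWT, Prox1 stayed at -1.10, while C1ql2 (-0.77) was now called lower and Neurod1 (0.97) higher, beside 1117 and 1009 of all genes. In MWT over CxWT, Zbtb20 was still called lower at -1.08, Fibcd1 and Wfs1 came to -0.10 and -0.065, and C1ql2 changed sign to 0.41. Using the coding part in place of the whole transcript, a variant added after the data were seen, Zbtb20 (1.15), Neurod1 (1.24) and Fibcd1 (0.81) were called higher in MH than in MWT, and Wfs1 (0.46) was not. With the coding part, the calls gained in CxH over CxWT were lost again (C1ql2 -0.70, under the threshold, and Neurod1 0.56), as were those of C1ql2 in MH over MWT (-0.55) and of Prox1 in MWT over CxH (0.63). In MWT over CxH, Neurod1 (-0.77) and Zbtb20 (-0.95) were still called lower and C1ql2 (0.83) higher.

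**Figure D3:**
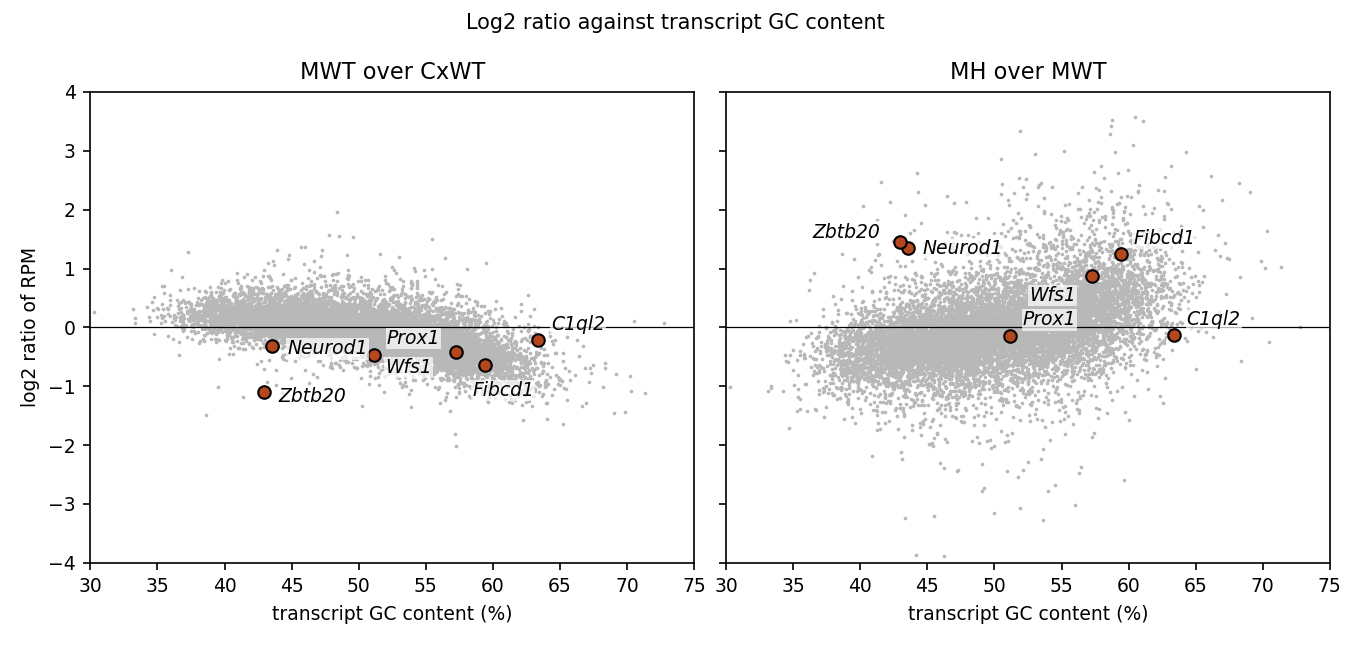
Log2 ratio of RPM against transcript GC content (%) for MWT over CxWT and MH over MWT; grey points are genes that reached 100 reads in each library and coloured points the 6 hippocampal genes. The cloud slopes down in the first panel (Spearman -0.627) and up in the second (0.486). Zbtb20 and Neurod1, at 43.0% and 43.6% GC of the whole transcript, lie off the trend of the second panel at 1.46 and 1.36. Their coding parts, not plotted, have 57.6% and 56.6% GC. Wfs1 and Fibcd1 lie within the rising cloud at 0.87 and 1.25.

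Wider lists of subfield genes were examined for the same libraries. Beside the 6 genes, 21 of 29 further listed markers had a row, and 8 of these 21 were called higher and 4 lower in MH over MWT, beside 12.3% and 12.7% of all genes. Their median log2 ratio there was 0.41, and 0.014 after the correction for GC content and length. In CxH over CxWT 6 were called higher and 4 lower, beside 9.46% and 11.5% of all genes (median 0.14, and 0.14 corrected). In MH over CxH 1 was called higher and 0 lower, beside 1.06% and 2.43% of all genes, and in MWT over CxWT 1 was called higher and 3 lower, beside 2.11% and 5.43% of all genes. These were as follows: Gpr161 was higher in MH than in CxH (0.70 ± 0.166), Pcp4 was higher in MWT than in CxWT (1.03 ± 0.0313), and Plk5 (-0.83 ± 0.161), Pou3f1 (-0.81 ± 0.139) and Gpr161 (-0.75 ± 0.209) were lower there. Corrected, Gpr161 in MH over CxH was at 0.78, whereas the 4 ratios of MWT over CxWT all fell under the threshold (Pcp4 0.56, Plk5 -0.32, Pou3f1 -0.23 and Gpr161 -0.63), and the list's median in that pair went from -0.15 to 0.067.

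In the CA1 list, all 5 genes, Mpped1, Wfs1, Fibcd1, Pou3f1 and Gpr161, were called higher in MH than in MWT, where 12.3% of all genes were, and 4 of them lower in MWT than in CxH, where 15.6% of all genes were. Mpped1, a metallophosphoesterase-domain gene, had 242.9 RPM in CxH and 206.9 in MH, against 52.92 in CxWT and 45.29 in MWT. Pou3f1, a POU-domain transcription factor also of cortical layers, had 19.17 RPM in CxH and 16.03 in MH, against 9.76 in CxWT and 5.56 in MWT. CxH and MH were therefore the high libraries for Mpped1 and Pou3f1 as they were for Wfs1 and Fibcd1. Gpr161, an orphan G-protein-coupled receptor, differed from these, with 5.19 RPM in MH, 4.19 in CxWT, 3.2 in CxH and 2.49 in MWT, and its log2 ratio of CxH over CxWT was -0.39 ± 0.178 and not called. The median log2 ratio of the 5 genes in MH over MWT was 1.25, and 0.82 after the correction for GC content and length. In MWT over CxH it was -1.09, and -0.34 after the correction. Corrected, Mpped1 (2.001), Pou3f1 (0.82) and Gpr161 (0.91) stayed above the threshold in MH over MWT, as did Mpped1 (-2.16) and Pou3f1 (-0.88), in size, in MWT over CxH.

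Dentate genes differed among themselves. Of the 10 in the table, 4 were called higher in MH than in MWT (C1ql3, Glis3, Plk5 and Trpc6) and 0 lower, beside 12.3% and 12.7% of all genes, and the median was 0.16, or 0.02 corrected for GC content and length. C1ql3, a paralogue of C1ql2 at the same synapses, had 70.83 RPM in CxH and 81.44 in MH, against 37.36 in CxWT and 41.6 in MWT, an arrangement unlike that of C1ql2 itself. Trpc6, a cation channel, had 6.21 RPM in CxH and 9.21 in MH, against 2.92 in CxWT and 2.25 in MWT, the order of Neurod1. Calb1, the calcium buffer calbindin of granule cells, ranged from 58.07 RPM in CxH to 94.42 in MWT, and Dock10 from 26.13 in CxH to 47.81 in MWT. CxH and MH were not separated for Calb1 (adjusted p = 0.528). With the correction, Calb1 went from 0.70 to -0.09 in MWT over CxH and from -0.27 to 0.30 in CxH over CxWT, and the calls of Dock10 in these pairs went from 0.87 to 0.64 and from -0.76 to -0.57, under the threshold. Plk5 likewise fell to 0.15 in MH over MWT.

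The CA2 list divided in direction. Of its 5 genes in the table, 1 was called higher and 4 lower in MH than in MWT, beside 12.3% and 12.7% of all genes, and 1 higher and 3 lower in CxH than in CxWT, beside 9.46% and 11.5%. Rgs14, a regulator of G-protein signalling, had 27.17 RPM in CxH and 25.8 in MH, against 5.5 in CxWT and 4.97 in MWT. Amigo2, an adhesion molecule, had the reverse, with 7.53 RPM in CxH and 8.67 in MH against 31.38 in CxWT and 33.06 in MWT. Cacng5, with 11.82 and 11.86 RPM in CxH and MH and 30.28 and 29.95 in CxWT and MWT, followed Amigo2, and so did Map3k15 (0.961 and 1.02 RPM, then 2.35 and 1.97). Pcp4, a calmodulin regulator and the gene of the list with the most reads, had neither arrangement, with 202.7 RPM in MWT, 121.6 in CxH, 99.53 in CxWT and 80.94 in MH, and its call in MH over MWT was lost with the correction (-1.32 to -0.69). Of the CA3 genes, Coch was called higher in CxH than in CxWT (0.78 ± 0.0897) and lower in CxWT than in MH (-0.87 ± 0.0893), while Bok and Grik4 were called in no pair. With the correction, Coch also passed the log2 threshold in MH over MWT (0.83) and in MWT over CxH (-0.84). Dcx and Sox11, which mark immature neurons together with Neurod1, were called in no pair either, Dcx ranging from 23.27 RPM in CxH to 32.13 in MWT. With the correction, Sox11 passed the log2 threshold in MWT over CxH (0.13 to 1.075) and in CxH over CxWT (-0.38 to -0.73).

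**Figure D4:**
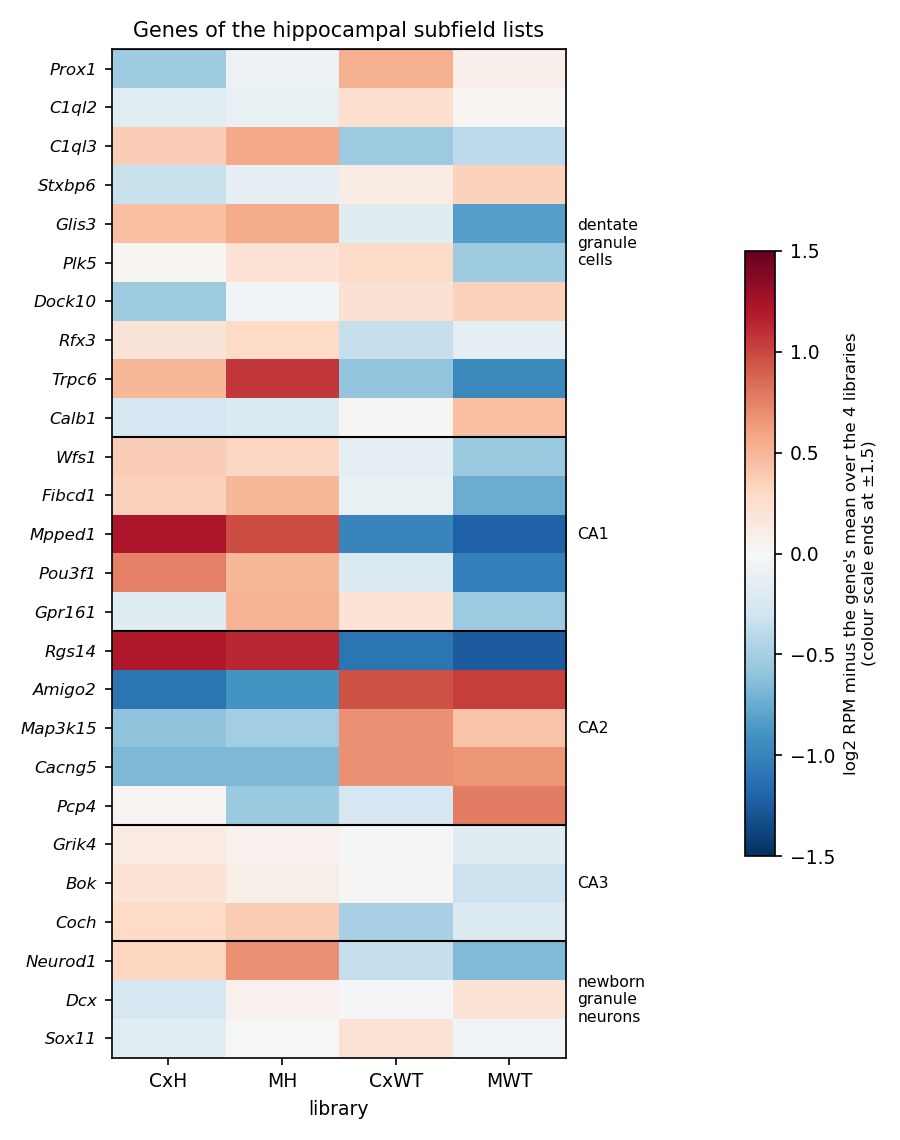
Genes of the hippocampal subfield lists in each library, as log2 RPM minus the mean of the gene over the 4 libraries; rows are genes grouped by list, red is above and blue below the mean, and the colour scale ends at 1.5 in size. Mpped1 and Rgs14 are high in CxH and MH (242.9 and 27.17 RPM in CxH), Amigo2 is high in CxWT and MWT (31.38 and 33.06 RPM), and C1ql2 is nearly even in these levels, which are not corrected for GC content and length.

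Partner genes were looked at next. Among 7 genes that act with C1ql2, kainate receptor subunits, neurexin 3, the adhesion receptor Adgrb3 and the paralogues, Grik5 was called higher in MH than in MWT (1.68 ± 0.0412) and in CxH than in CxWT (1.01 ± 0.0301), as was C1ql3. These were 2 of the 7 in each pair, and higher calls made up 12.3% and 9.46% of all genes there. Grik5 (-0.89 ± 0.0447) and C1ql1 (-0.90 ± 0.133) were called lower in MWT than in CxWT, as were 5.43% of all genes, and Grik2, Grik4, Nrxn3 and Adgrb3 were called in no pair. Of 6 desmosome genes that would act with Dsp, 4 had a row. Pkp2 was called higher in MH than in CxH (1.31 ± 0.139), as were 1.06% of all genes, and lower in CxH than in CxWT (-0.71 ± 0.153), as were 11.5%. Jup was called lower in MWT than in CxH (-0.78 ± 0.0669), as were 15.6% of all genes, and Pkp4 and Perp were called in no pair. With the correction, Grik5 stayed above the threshold in MH over MWT (0.84) but not in CxH over CxWT (0.66) or MWT over CxWT (-0.22), and C1ql1 (-0.17), Pkp2 in CxH over CxWT (-0.66) and Jup (-0.08) came under it.

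Markers of other cells, some of which can express these genes, are given beside them. Genes of the interneurons that arise in the caudal ganglionic eminence, cells that also express Prox1, summed to 97.58 RPM in CxH and 103.0 in MH, against 83.08 in CxWT and 73.0 in MWT (5 of 6 listed genes). Reln made up the greater part of that sum, and the genes differed among themselves. Adarb2 had the order of Prox1, with 23.08 RPM in CxWT, 19.83 in MWT, 12.1 in MH and 9.17 in CxH. In CxH over CxWT Vip and Htr3a were called higher and Adarb2 lower, beside 9.46% and 11.5% of all genes. In MH over MWT Vip, Htr3a and Npas1 were called higher and Adarb2 lower, beside 12.3% and 12.7% of all genes. Thalamic genes (8 of 8) were high in CxWT and MWT, the libraries that were also highest for Prox1. For Prox1, however, MWT and MH were not separated (adjusted p = 0.169), unlike the thalamic sums of 523.8 and 96.16 RPM. The summed levels of cortical excitatory genes (10 of 10 in the table) and striatal genes (8 of 8) were higher in CxH and MH, the libraries that were highest for Wfs1 and Fibcd1. Of the 10 cortical genes 7 were called higher in MH than in MWT and 1, Foxp2, lower, and of the 8 striatal genes 6 were called higher and 1, Tac1, lower (-0.96, and -0.37 corrected), beside 12.3% and 12.7% of all genes. Cux2, among the 7 cortical genes, fell from 1.04 to 0.48 with the correction, under the threshold. The striatal sum was 952.1 and 771.4 RPM in CxH and MH, and 370.5 and 374.7 in CxWT and MWT. Astrocyte genes (7 of 7), cells that also express Zbtb20, summed to 3850 RPM in CxH and 3098 in MH, against 2763 in CxWT and 3463 in MWT. Slc1a2 and Aldoc made up the greater part of that sum, and the genes differed in direction. The water channel gene Aqp4 was lowest in CxH (135.9 RPM) and highest in MWT (353.1), and Gfap was highest in CxH (603.5 RPM) and MWT (554.9) and lower in CxWT (280.1) and MH (253.4). In MH over MWT these 2 of the 7 were called lower and 0 were called higher, beside 12.7% and 12.3% of all genes. Genes of choroid plexus, ependyma and meninges (8 of 9) summed to 606.8 RPM in CxH and 653.5 in MH, against 175.1 in CxWT and 290.4 in MWT, a sum that was higher in the same libraries as Wfs1 and Fibcd1. Most of that sum was Ttr, the transthyretin gene of the choroid plexus, with 537.2, 582.6, 112.6 and 220.8 RPM in the same order. The genes differed in direction. In CxH over CxWT 4 were called higher (Ttr, Kl, Folr1 and Slc6a13) and 2 lower (Lum and Foxj1, a factor of ciliated cells), beside 9.46% and 11.5% of all genes. In MH over MWT 2 were called higher (Ttr and Folr1) and 1 lower (Foxj1), beside 12.3% and 12.7%. The hypothalamic genes Oxt, Avp and Hcrt were at or under 3 reads in CxH. The part of these cells in the levels of the hippocampal genes was not tested.

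**Figure D5:**
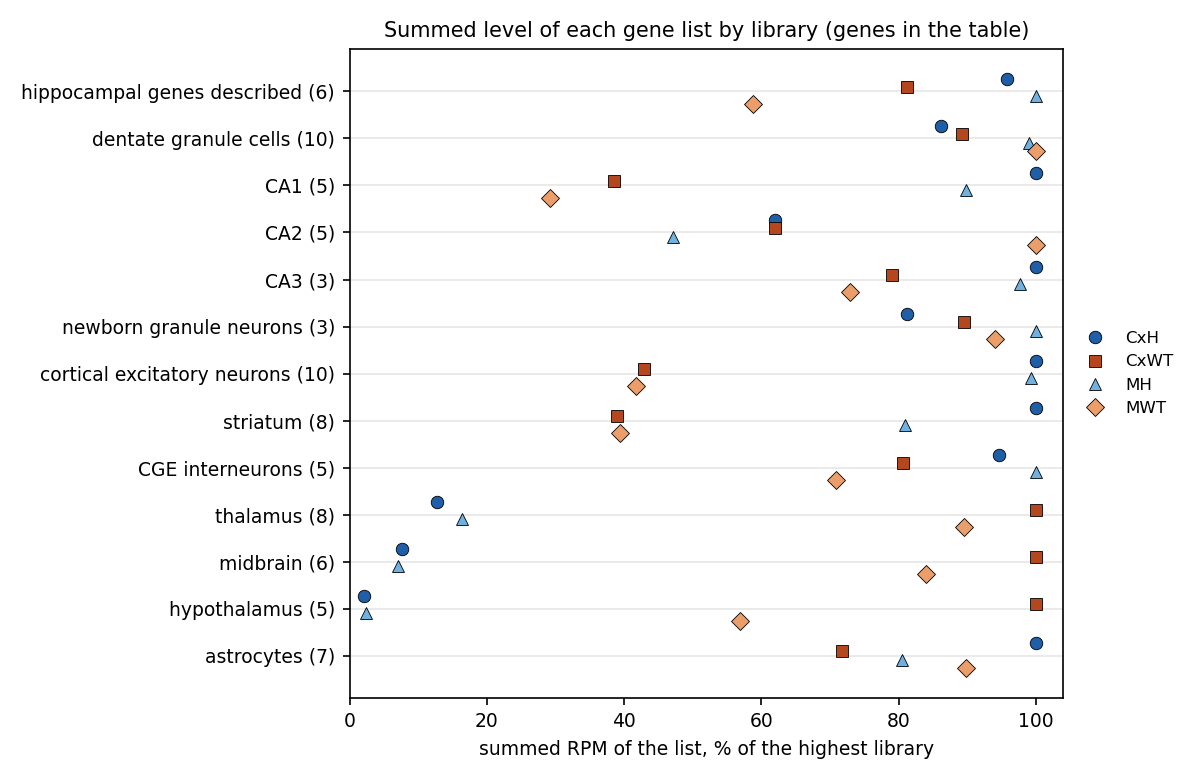
Summed RPM of each gene list in CxH, CxWT, MH and MWT, as a percentage of the highest library for that list; the number of genes in the table is in parentheses and points are set apart vertically for legibility. Thalamic, midbrain and hypothalamic lists are low in CxH and MH and cortical and striatal lists low in CxWT and MWT, whereas the sum of the 6 hippocampal genes spans a narrower range, from 88.82 RPM in MWT to 151.0 in MH. That sum is dominated by Wfs1 and adds genes of different arrangement. Among the subfield lists, the CA1 sum falls to 29.2% in MWT, and the dentate sum falls no lower than 86.2%, in CxH.

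The genes whose profiles over the 4 libraries lay closest to each member were listed for the 4 members that varied over 2-fold, by the root mean square difference of log2 RPM after centring, among genes that reached 100 reads in each library. For Prox1 they were Tsc22d3 (0.022), Zfp619 (0.04) and Syt4 (0.053). For Neurod1 they were Pxdn (0.043), Ptpn14 (0.053) and Trank1 (0.053), and for Fibcd1 they were Hs6st3 (0.031), Zfyve28 (0.036) and Cdkn1a (0.037). Zbtb20 had its nearest genes further off, Cdc34 (0.06), Rhbdf1 (0.061) and Trerf1 (0.064). With 4 libraries such likeness is common: 510 genes lay within 0.2 of Prox1, 448 of Fibcd1, 175 of Neurod1 and 151 of Zbtb20.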

How the data were processed

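RNA of 4 pools of 7 mice was sequenced, with 1 library per condition. The authors sequenced all libraries in 1 SOLiD run, aligned reads to NCBI37/mm9 with PASS 2.10 (best hit, at most 2 mismatches, no gap), and counted reads that fell on 1 gene alone. Genes were kept if over 50% of their length was covered, and the deposited counts are raw reads per gene without normalization. The gene annotation and the use of strand in counting are not given in the sources used here.

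Entrez identifiers were matched to symbols for 12690 of 12700 genes. RPM were computed from the aligned reads that the study states for each library, and a count of 0 was set to 1 in ratios. Test and thresholds are those the authors state, applied to all genes. Positions came from GENCODE vM1, as did the GC content and the length of each gene's longest protein-coding transcript, for 12346 genes. Reads on genes were 23475080, 20266394, 22057807 and 16380080 in CxH, CxWT, MH and MWT. Where a gene overlaps another on either strand, as Neurod1, Prox1 and Zbtb20 do, its count is uncertain by the shared bases.

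The members and gene lists were chosen with earlier results of these data known. All members in the table are named. From the wider lists, at most the 4 genes with the most reads per list are named, together with genes over 4-fold between libraries (at least 100 reads in the highest), genes in counts of 5 or fewer, Ids, and 3 nearest profiles for each member over 2-fold.

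Alternatives were scaling by column totals, by TMM factors or by DESeq2 size factors, a filter of 100 reads in any library, a log2 threshold of 1, Benjamini-Hochberg adjustment, edgeR's exact test at a biological coefficient of variation set to 0.2, 0.5 added to every count, and the correction for GC content (cubic) and length (quadratic). The steps were tested on simulated data. R 4.3.3 ran edgeR 4.0.16 and DESeq2 1.42.0, and Python 3.11.15 ran scipy 1.17.1, pandas 2.3.3, numpy 2.4.6 and matplotlib 3.10.9. Raw reads were not used here.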

Additional observations from a re-analysis of the deposited data

Results flagged for a closer look

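Prox1 differed in opposite directions between the areas in the genotype labels, with a log2 ratio of 0.47 for MH over CxH and -0.46 for MWT over CxWT. Fibcd1 did so as well, at 0.15 and -0.63. The difference between these ratios was not tested, as each rests on 1 library per condition.

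Ids, the disrupted gene, was flagged in the same way, with 1.44 for MH over CxH and -1.19 for MWT over CxWT, and with -1.39 for CxH over CxWT and 1.25 for MH over MWT. These differences were not tested either.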

How the results depend on the processing

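Of 360 values of the members under the alternatives (6 genes, 6 pairs, 10 alternatives), 334 kept direction and call, 11 came to be called, 10 lost the call and 5 changed sign. The Benjamini-Hochberg adjustment, the addition of 0.5, the exact test and the read filter changed no member's call. In CxH over CxWT, where 1 gene was called, 2 were called with TMM factors and 2 with DESeq2 size factors (Neurod1 at 0.76 in both), and 3 with the correction for GC content and length. In CxWT over MH 2 were called with TMM factors and 2 with DESeq2 size factors, Fibcd1 being added at -0.72. In MWT over CxH the log2 threshold of 1 left 2 of 4, and column totals added Prox1 (0.72). The GC and length correction turned the sign of Zbtb20 (-0.15) and Wfs1 (0.084) in MH over CxH and of C1ql2 (0.41) in MWT over CxWT, and the correction by the coding part turned Wfs1 (0.023) and C1ql2 (0.13) in the same pairs. These reversals are of ratios that were not called.

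Calls over all genes, higher and lower, went from 135 and 309 to 183 and 257 with column totals in MH over CxH, and from 268 and 690 to 390 and 480 in MWT over CxWT. They went from 1201 and 1457 to 1447 and 1135 with TMM factors (1429 and 1150 with DESeq2 size factors) in CxH over CxWT, from 1129 and 814 to 855 and 1013 with TMM factors (852 and 1016 with DESeq2 size factors) in CxWT over MH, and from 1915 and 1980 to 2504 and 1609 with column totals in MWT over CxH. Factors by TMM and DESeq2 moved the median of all genes in CxWT over MH by -0.108 and -0.109, and column totals moved it in MWT over CxH by 0.108. The log2 threshold of 1 left 34 and 109 in MH over CxH, 101 and 194 in MWT over CxWT, 691 and 710 in CxH over CxWT, 869 and 773 in MH over MWT, 567 and 497 in CxWT over MH, and 854 and 1107 in MWT over CxH. In MH over MWT the 1556 and 1614 became 1774 and 1386 with TMM factors, 1775 and 1380 with DESeq2 size factors, and 1377 and 1896 with column totals, so that higher calls outnumbered lower ones with TMM factors and DESeq2 size factors alone among the scalings. The GC correction left 1032 and 1232 in MH over MWT, 175 and 206 in MWT over CxWT and 1017 and 1011 in MWT over CxH (1166 and 1222, 196 and 254, and 1114 and 1209, by the coding part), and the exact test left 40 and 151 in MH over CxH and 128 and 359 in MWT over CxWT.

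Although each brain was divided into Cx and M, no paired analysis was run, because each condition has 1 library. For the same reason no library was left out. Depth limits the precision of Neurod1 and Zbtb20 in MWT, with 105 and 109 reads.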
